A study of Homo sapiens with 4 samples.

Results

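The regions described here gained ATAC-seq signal over untreated cells both with N,N-dimethyldoxorubicin (diMe-Doxo) and with aclarubicin (Acla). They were chosen as the regions with identical coordinates in the authors' lists of gained regions for these drugs, and there were 43402 of them among 100205 regions listed for any drug of the series. They made up 82.2% of the 52784 regions listed for diMe-Doxo and 70.8% of the 61295 listed for Acla. The remaining 9382 diMe-Doxo regions and 17893 Acla regions were listed for only one of these drugs, and the signal of the other drug there was not analysed here. All cells were K562, an established human chronic myelogenous leukaemia line. They were untreated, or exposed for 4 h to 10 µM diMe-Doxo, 20 µM Acla or 10 µM doxorubicin (Doxo). The labels give 1 sample per group, the lists hold 2 libraries per group, and nothing says that these came from separate cultures, so p-values measure only the spread between these libraries. Because diMe-Doxo was given at 10 µM and Acla at 20 µM, drug and dose cannot be told apart in any difference between them.

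Anthracyclines are flat molecules that slide between the base pairs of DNA, with a sugar part that lies in the minor groove. Doxorubicin both traps topoisomerase II on DNA, which leaves double-strand breaks, and pushes histones out of nucleosomes, and evicted histones leave DNA open to the transposase that ATAC-seq uses. In diMe-Doxo the amine of the doxorubicin sugar carries methyl groups, and Acla has a longer chain of sugars whose first member also carries a dimethylated amine. Both are known to evict histones while causing few or no breaks. The lists hold no measure of breaks, so that property could not be checked here. Nor could the identity of the cells be checked, because the lists hold coordinates without gene names and no annotation of their genome build was used.

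At the shared regions the levels of both drugs lay close to each other, which the choice of regions gained with both drugs helps to set. A level below is the signal of a library divided by the signal that 1 control read has in the same list, so a level of 13.1 is the signal of 13.1 control reads. Dividing in this way puts both lists on the scale of their common controls, whose reads were identical in the lists at all 43402 regions. The lists were normalised separately, so any level set across them rests on this common scale. The lowest control value was 1 read, and a region without any read may stand at this value. The median level over the regions was 13.1 and 11 in the diMe-Doxo libraries and 15 and 12.5 in the Acla libraries, against a median of 1 read in each control library. The higher diMe-Doxo library lay above the lower Acla library, so the groups overlapped. Median log2 folds against control at these regions, from the authors' deposited table, were 2.64 with diMe-Doxo and 2.82 with Acla, values that the choice of gained regions helps to set. The regions covered 44.6 Mb, were 82 to 5231 bp wide with a median of 943 bp, and had no control peak at 39052 (90.0%). Library depth inside them was 3651411 and 2996632 reads with diMe-Doxo, 5790674 and 4748971 with Acla, and 106852 and 93942 in the controls.

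The median log2 difference, diMe-Doxo minus Acla, was -0.15. Over the 4 pairs of 1 diMe-Doxo and 1 Acla library it ran from -0.417 to 0.087. The libraries of a single drug differed by a median of 0.235 for diMe-Doxo and 0.281 for Acla, so the shift between drugs was smaller than the shift between libraries of a drug. An exact test of 2 libraries against 2 cannot go below a two-sided p of 0.33. From region to region the drugs differed more than their libraries did. The SD over regions of the log2 difference was 0.395 between the diMe-Doxo libraries and 0.398 between the Acla libraries. Across drugs it was 0.604, 0.503, 0.607 and 0.516. At 32426 regions (74.7%) the drugs lay within 1.5-fold of each other, a share that the choice of regions gained with both drugs helps to set. A level at least 2-fold higher with diMe-Doxo was seen at 217 regions and with Acla at 2091.

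Single regions were tested with limma on log2 levels, with Benjamini-Hochberg adjustment over all 43402 regions and an adjusted p limit of 0.05. It called 386 regions higher with diMe-Doxo (0.889%) and 2586 higher with Acla (5.96%). Rescaling the libraries on the shared regions by TMM, which assumes that most regions do not differ, gave 2938 (6.77%) and 3663 (8.44%), and moved the median difference to 0.00485. All 386 diMe-Doxo calls and 2577 of the 2586 Acla calls were among the TMM calls, and 0 regions were called in opposite directions. The split between directions thus depended on the scale. TMM shifted all differences by the same amount, so differences between classes of regions are given relative to each other below. Among the regions called under both scales, the median log2 difference was 0.965 for those higher with diMe-Doxo and -1.08 for those higher with Acla. On the authors' scale, the calls higher with diMe-Doxo and with Acla were 23 and 989 without diMe-Doxo library 1 and 20 and 45 without library 2. They were 19 and 12 without Acla library 1, and 252 and 3323 without library 2.

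**Figure D1:**
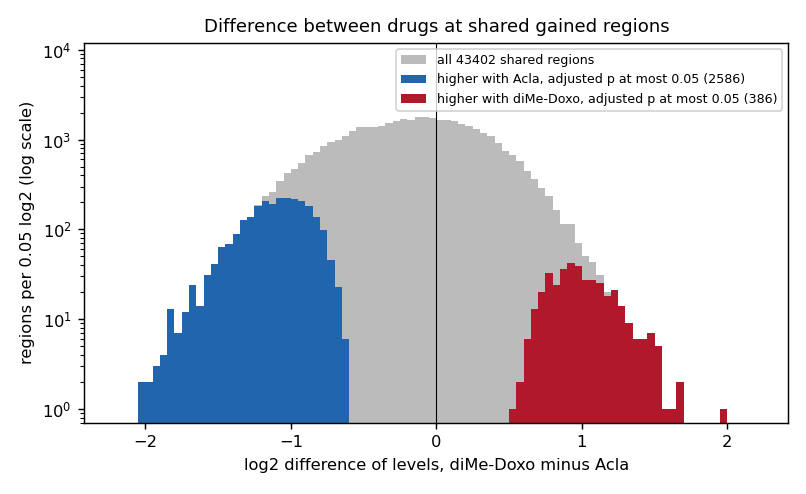
Histogram of the log2 difference of levels (x axis, diMe-Doxo minus Acla) over all 43402 shared regions in grey, with the 386 regions called higher with diMe-Doxo in red and the 2586 called higher with Acla in blue; the y axis counts regions on a log scale. The grey distribution is centred slightly below 0 and its lower tail is the longer.

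The regions with the lowest adjusted p in each direction showed every library of one drug above every library of the other. Their choice by p from these same libraries helps to set this. On chromosome 6 at 166720213-166722353 (GRCh37) the diMe-Doxo libraries had levels of 120.0 and 87.6 and the Acla libraries 33.9 and 38.3. These levels stood for 596 and 422 reads against 240 and 264, beside 16 reads and 1 read in the controls. The difference was 2.85-fold (log2 1.51 ± 0.21 SE, limma adjusted p 6.14e-08). On chromosome 14 at 59930476-59932462 the diMe-Doxo levels of 42.1 and 27.4 compared with 9.17 and 8.28 for Acla, a 3.9-fold difference (log2 1.96 ± 0.30, limma adjusted p 9.27e-07). No control peak was called there, and the controls held 4 reads and 1 read. The authors' false discovery rate for Acla over control was 0.0786 there and 0.0794 at the region on chromosome 6. Their gain with Acla thus missed a limit of 0.05 on that rate. The other 3 named regions higher with diMe-Doxo lay on chromosome 1 at 235812333-235814244, chromosome 3 at 71802181-71804555 and chromosome 2 at 162095056-162096358, with log2 differences of 1.55, 1.67 and 1.47. All 5 stayed past the limit without any 1 of the 4 libraries, with adjusted p-values from 7.53e-05 to 0.0279.

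In the opposite direction, the region on chromosome 1 at 209023685-209025859 had levels of 18.3 and 16.2 for diMe-Doxo, against 63.9 and 45.7 for Acla. The difference was 3.14-fold (log2 -1.65 ± 0.25, limma adjusted p 9.27e-07), with 2 reads in each control library. The region on chromosome 3 at 179920690-179921924, with 1 read in each control, had levels of 5.24 and 5.81 against 25.8 and 19.7. This was the lowest diMe-Doxo signal of the 10 regions and a 4.09-fold difference (log2 -2.03 ± 0.35, limma adjusted p 2.25e-05). A peak had been called there in 1 diMe-Doxo library and both Acla libraries. The remaining regions were on chromosome 3 at 7752312-7754142, chromosome 5 at 125162065-125163579 and chromosome X at 6301011-6302662, with log2 differences of -1.74, -1.56 and -1.69. On chromosome 3 at 7752312-7754142 the authors' false discovery rate for diMe-Doxo over control was 0.0674. The calls on chromosomes 5 and X rested partly on Acla library 1, without which the limma adjusted p was 0.0979 and 0.0643. The call on chromosome 5 was also lost without diMe-Doxo library 2, at an adjusted p of 0.083.

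**Figure D2:**
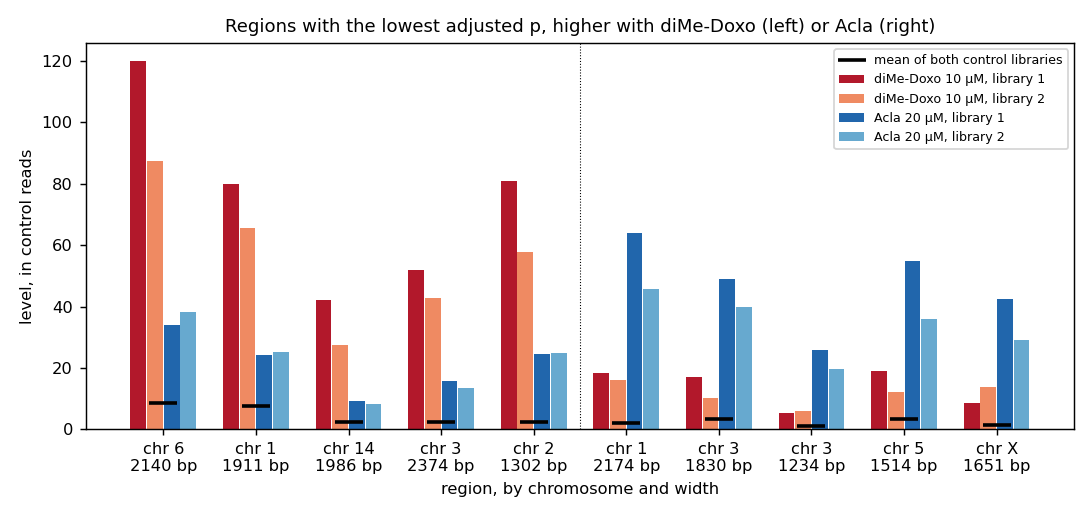
Level of each library (y axis, in control reads) at the 5 regions with the lowest adjusted p in each direction, labelled by chromosome and width; red bars are diMe-Doxo libraries, blue bars Acla libraries and black marks the mean of the control libraries. At all 10 regions the bars of one drug lie wholly above those of the other, which the choice of regions by p helps to set. On chromosome 6 the diMe-Doxo libraries reach 120.0 and 87.6 against 33.9 and 38.3 with Acla.

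The 3 widest regions and the 3 with the most treated reads differed less between drugs than the regions with the lowest adjusted p. The choice of the latter by p helps to set this. The widest, 5231 bp on chromosome 4 at 100570438-100575669, was a peak in both controls and had levels of 237 and 206 for diMe-Doxo, against 126 and 116 for Acla, a 1.83-fold difference (log2 0.87 ± 0.17, limma adjusted p 0.000188). It was also among the 3 regions with the most control reads (50 and 18) and the 3 with the most treated reads. The others with the most treated reads were on chromosome 6 at 166073615-166077201 and chromosome 4 at 113277068-113281005, with log2 differences of 0.77 and 0.58 (limma adjusted p 0.00101 and 0.0236). These 3 calls had adjusted p-values from 0.0428 to 0.509 when 1 library was left out, and passed the limit only for the widest region without diMe-Doxo library 2. The next widest regions, on chromosome 2 at 129024718-129028948 and chromosome 21 at 44836854-44841056, had log2 differences of 0.50 and -0.26 (limma adjusted p 0.122 and 0.496, and 0.00195 and 0.627 with TMM). Of the regions with many control reads, the one on chromosome 22 at 20988581-20991053 had levels of 109 and 99.8 for diMe-Doxo, against 94.3 and 119 for Acla, a log2 difference of -0.03 ± 0.19. The one on chromosome 1 at 228112533-228116420 had a log2 difference of 0.32 ± 0.18 (limma adjusted p 0.296, and 0.00052 with TMM). Its authors' false discovery rate for Acla over control was 0.0713. The groups overlapped on chromosomes 21 and 22.

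Regions that already had signal in untreated cells leaned towards diMe-Doxo relative to regions with the lowest control signal, which leaned towards Acla. At the 14578 regions with 1 read in each control library the median log2 difference was -0.254. It was -0.169 at 17285 regions with 3 to 5 control reads, -0.0302 at 11253 with 6 to 20, and 0.197 at 286 with over 20. In the last class every pair of libraries gave a median above 0, from 0.0502 to 0.357. Between the outer classes the median rose by 0.45, and by 0.241 to 0.711 over the 4 pairs of libraries. It rose by 0.262 without Acla library 1 and by 0.706 without Acla library 2. With TMM the medians of these classes were -0.0987, -0.0133, 0.125 and 0.353. Of the regions with over 20 control reads, 17 were called higher with diMe-Doxo and 2 higher with Acla, or 5.94% and 0.699% beside 0.889% and 5.96% of all regions. The control peaks that the authors called gave the same order. The median difference was -0.177 where no control library had a peak, 0.0279 where 1 had and 0.106 where both had. Control reads do not enter the contrast between the drugs, but they do enter the choice of regions, since a region with more control reads needs more treated signal to be listed. Regions with more control reads were also wider and held more treated reads, so these classes were not called with equal ease.

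Width taken alone showed no single direction. The median log2 difference was 0.0336 at 4033 regions under 500 bp and -0.149 at 19858 regions of 500 to under 1000 bp. It was -0.235 at 13158 regions of 1000 to under 1500 bp, -0.149 at 5891 of 1500 to under 2500 bp and 0.113 at 462 of at least 2500 bp. From the narrowest to the widest class the median rose by 0.08, and the 4 pairs of libraries gave -0.081 to 0.241, so the difference in medians did not exceed the spread. Of the 462 widest regions, 6.49% were called higher with diMe-Doxo and 6.28% higher with Acla, beside 0.889% and 5.96% of all regions. With TMM the shares were 37.2% and 10.6%, beside 6.77% and 8.44%. Wider regions also held more reads, so classes of width were not called with equal ease in either direction. Median reads were 38 and 33 for diMe-Doxo and 56 and 48 for Acla under 500 bp. In the widest class they were 291 and 227, and 372.5 and 345. With control signal held at 1 read per library, the median over both libraries of each drug fell with each wider class. The medians were -0.00425, -0.264, -0.423, -0.451 and -0.634 from the narrowest to the widest class, the last with 11 regions. Over the 4 pairs they ran from -0.195 to 0.15 under 500 bp and from -0.779 to -0.111 at 1500 to under 2500 bp. The pair of diMe-Doxo library 2 and Acla library 1 did not fall at every step, with -0.783 before -0.779. Among the 552 such regions of 1500 to under 2500 bp, 112 (20.3%) were called higher with Acla, beside 5.96% of all regions, and 5 (0.906%) higher with diMe-Doxo, beside 0.889%. Median levels there were 18.9 and 16 for diMe-Doxo, against 26.9 and 20.8 for Acla. Under 500 bp they were 6.54 and 6.02 against 6.92 and 5.95. Levels thus rose with width. The narrow regions lay nearer the fold needed for listing, with median log2 folds over control of 2.61 for diMe-Doxo and 2.69 for Acla. The part of level in the fall with width was not tested. With TMM the median differences ran from 0.151 in the narrowest of these classes to -0.478 in the widest. At a fixed width of 1000 to under 1500 bp, the median difference went from -0.423 with 1 read in each control to 0.191 with over 20 control reads, in a class of 28 regions.

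**Figure D3:**
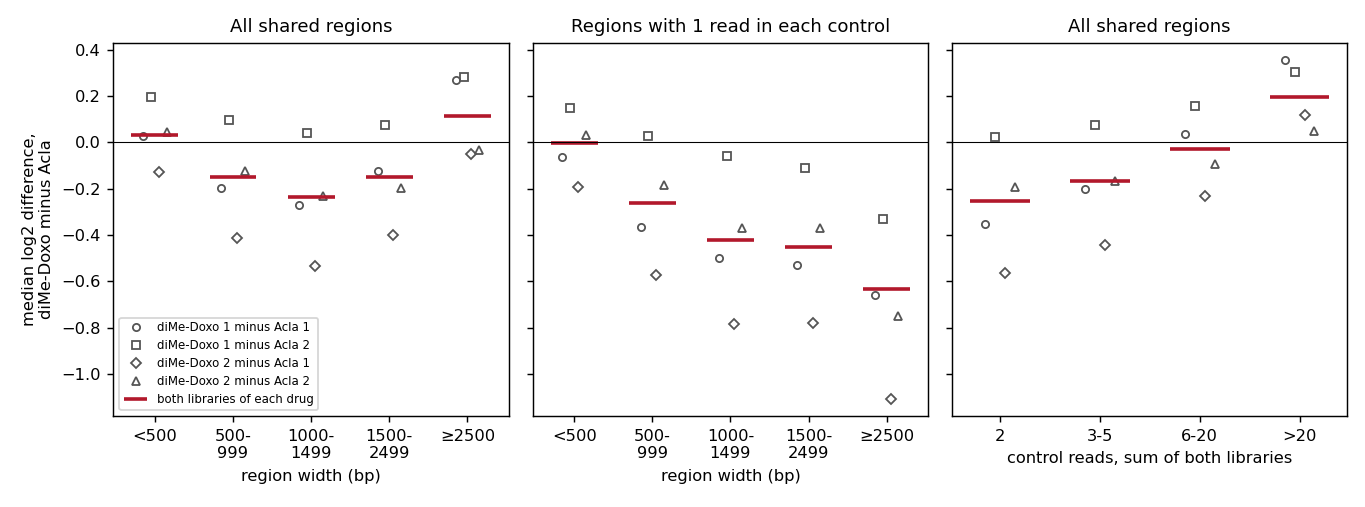
Median log2 difference, diMe-Doxo minus Acla (y axis), by region width for all shared regions (left) and for regions with 1 read in each control library (middle), and by control reads summed over both libraries (right). Red bars use both libraries of each drug and open symbols single pairs of libraries; the middle panel falls from -0.00425 to -0.634 with width and the right panel rises from -0.254 to 0.197 with control reads.

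The regions that stood higher with diMe-Doxo than with Acla were mostly regions listed as gained with doxorubicin, given like diMe-Doxo at 10 µM. The Doxo list was brought in after values of these regions had been seen. Its control reads were not compared with those of the other lists, so Doxo levels below rest on a scale that was not checked. Of the 386 called under both scales, 369 (95.6%) were also listed for Doxo, beside 69.9% of the 2577 higher with Acla and 66.2% of all shared regions. The Doxo libraries take no part in the contrast between diMe-Doxo and Acla, and the share was 90.2% for the 2938 regions higher with diMe-Doxo under TMM. Without Acla library 1 the order turned over, with 78.9% of 19 regions higher with diMe-Doxo listed for Doxo against 83.3% of 12 higher with Acla. With TMM and without that library the shares were 88.5% and 80.3%. At those 369 regions the median levels were 106 and 114 in the Doxo libraries, 38.1 and 31.3 for diMe-Doxo, against 16.9 and 18.1 for Acla. At the 1802 regions higher with Acla that were listed for Doxo, they were 12.6 and 14.4 with Doxo, 13.5 and 11 for diMe-Doxo, against 28.9 and 22.1 for Acla. Over all shared regions listed for Doxo they were 17.1 and 17.9 with Doxo, 15.7 and 13.1 for diMe-Doxo, against 16.8 and 14.8 for Acla. Doxo stood far above both other drugs where diMe-Doxo was higher. Where Acla was higher, Doxo and diMe-Doxo levels lay close to each other, as they did over all shared regions listed for Doxo. The calls themselves help to set the diMe-Doxo and Acla levels of their sets. The authors' deposited table gave a median log2 fold for Doxo of 4.87 at the regions higher with diMe-Doxo, 2.91 at those higher with Acla and 3.13 over all shared regions listed for Doxo.

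Regions higher with diMe-Doxo were also wider (median 1480.5 bp against 1227 bp for those higher with Acla and 943 bp for all), and of the regions under 500 bp 55.6% were listed for Doxo, beside 93.1% of those of at least 2500 bp. A control peak was present at 22.3%, 4.19% and 10.0% of these sets. The part of width and control signal in the shares was looked at within classes. At 1000 to under 1500 bp, 103 of 107 regions higher with diMe-Doxo were listed for Doxo (96.3%), against 69.5% of those higher with Acla and 72.2% of all. At 1500 to under 2500 bp the shares were 99.4%, 78.7% and 83.3%. At regions with 1 read in each control library they were 86.0%, 73.5% and 61.9%. Of the 5 named regions higher with diMe-Doxo, all were listed for Doxo, and in the authors' deposited table their Doxo log2 folds of 5.16 to 6.79 exceeded both their diMe-Doxo folds (3.26 to 4.82) and their Acla folds (1.70 to 3.33). Of the 5 higher with Acla, 4 were listed for Doxo, with folds of 2.05 to 3.44 beside 3.59 to 4.78 for Acla.

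The difference between the drugs also rose along the range of the Doxo gain. At 5738 shared regions with an authors' Doxo log2 fold of 1.5 to under 2.5 the median difference, diMe-Doxo minus Acla, was -0.176. It was -0.159 at 12725 regions with a fold of 2.5 to under 3.5, -0.0522 at 6475 with 3.5 to under 4.5, 0.0424 at 2877 with 4.5 to under 5.5 and 0.207 at 920 with at least 5.5. In the highest of these classes all 4 pairs of libraries gave a median above 0, from 0.00756 to 0.43. The change from the lowest to the highest class was 0.38, and 0.184 to 0.654 over the 4 pairs. It was 0.227 without Acla library 1 and 0.619 without Acla library 2. With TMM the lowest and highest classes had medians of -0.0206 and 0.362. Regions called higher with diMe-Doxo went from 10 (0.174%) to 115 (12.5%), and regions called higher with Acla from 442 (7.7%) to 8 (0.87%), beside 0.889% and 5.96% of all regions. Median Doxo levels rose from 11.1 and 11.5 to 91.5 and 104 over these classes. Those of diMe-Doxo rose from 14.7 and 12.4 to 20.5 and 16.7, and those of Acla went from 17.4 and 14.4 to 14.7 and 16.1. The diMe-Doxo level thus changed little beside that of Doxo. At regions with 1 read in each control library the change in the median difference was 0.386. The width of the regions rose along these classes from a median of 993 to 1356 bp. At a fixed width of 1000 to under 1500 bp the median difference still went from -0.265 to 0.146.

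**Figure D4:**
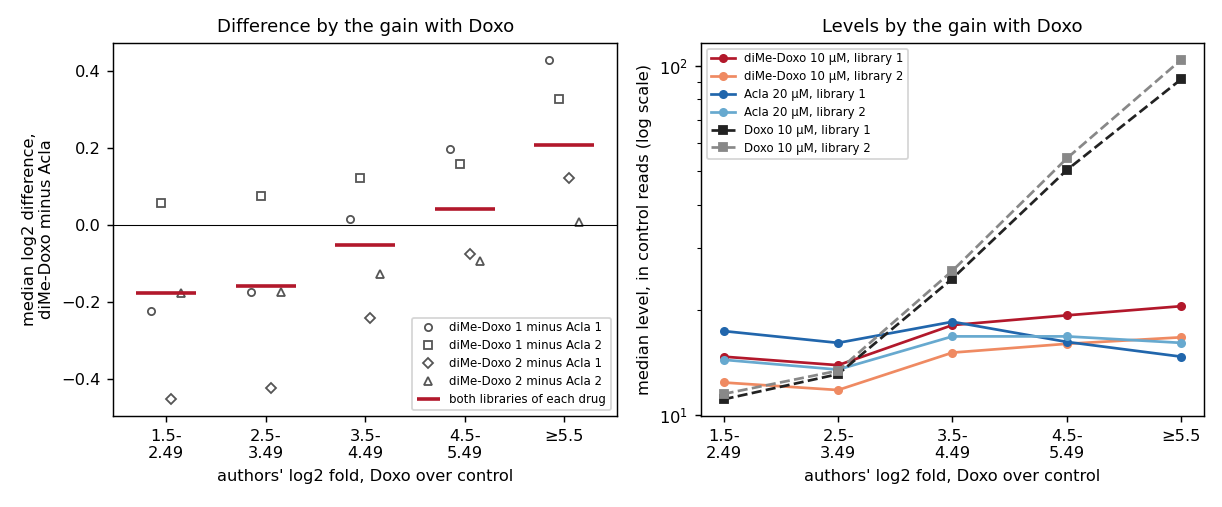
Left, median log2 difference, diMe-Doxo minus Acla, at shared regions also listed for Doxo, in classes of the authors' log2 fold of Doxo over control (x axis), with red bars for both libraries of each drug and open symbols for single pairs. Right, median level of each library in the same classes on a log scale; Doxo rises from 11.1 and 11.5 to 91.5 and 104, while all diMe-Doxo and Acla medians stay between 11.8 and 20.5.

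Simply being listed for Doxo went with a smaller shift. The median difference was -0.102 at the 28735 shared regions listed for Doxo and -0.237 at the 14667 not listed. The change of 0.13 ran from -0.003 to 0.297 over pairs of libraries and was 0.017 without Acla library 1, so it did not exceed the spread. Of the regions not listed for Doxo, 17 (0.116%) were called higher with diMe-Doxo, beside 0.889% of all regions. The share called higher with Acla, 5.3%, was near the 5.96% of all regions.

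With both libraries of each drug, the X chromosome had the lowest median among chromosomes, but the order of chromosomes changed with the Acla library. Copy number in the aneuploid K562 genome is common to both drugs within a chromosome, and chromosomes with at least 100 shared regions were compared. On chromosome X the median log2 difference over 1557 regions was -0.376, with pairs of libraries from -0.695 to -0.0668. Of these regions 185 (11.9%) were called higher with Acla and 16 (1.03%) higher with diMe-Doxo, beside 5.96% and 0.889% of all regions. Chromosomes 13 and 18 followed with -0.256 and -0.247, the latter shared by chromosome 4, and chromosome 19 came next with -0.236. The highest medians were -0.0232 on chromosome 10, -0.0418 on chromosome 14 and -0.0723 on chromosome 15. On chromosome 10 the shares called higher with diMe-Doxo and with Acla, 1.04% and 4.55%, were near those of all regions. In both pairs with Acla library 1, chromosome X was lowest and chromosome 22 highest (0.195 and -0.102), followed by chromosome 17 (0.112 and -0.168). In both pairs with Acla library 2, chromosome 19 was lowest (-0.203 and -0.453) and chromosome 10 highest (0.191 and -0.0466). The range over chromosomes was 0.35, and the pairs of libraries gave 0.394 to 0.64. The range was 0.62 without Acla library 2. TMM left it at 0.353, from -0.22 on chromosome X to 0.132 on chromosome 10.

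Chromosome 19 was singled out after its values were seen. Of its 632 shared regions 91.1% were listed for Doxo, the highest share of any chromosome compared. Its median log2 difference was -0.236, and each pair of libraries gave a median below 0, from -0.453 to -0.00213. With TMM the median was -0.0802. There 1 region (0.158%) was called higher with diMe-Doxo and 13 (2.06%) higher with Acla, beside 0.889% and 5.96% of all regions.

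**Figure D5:**
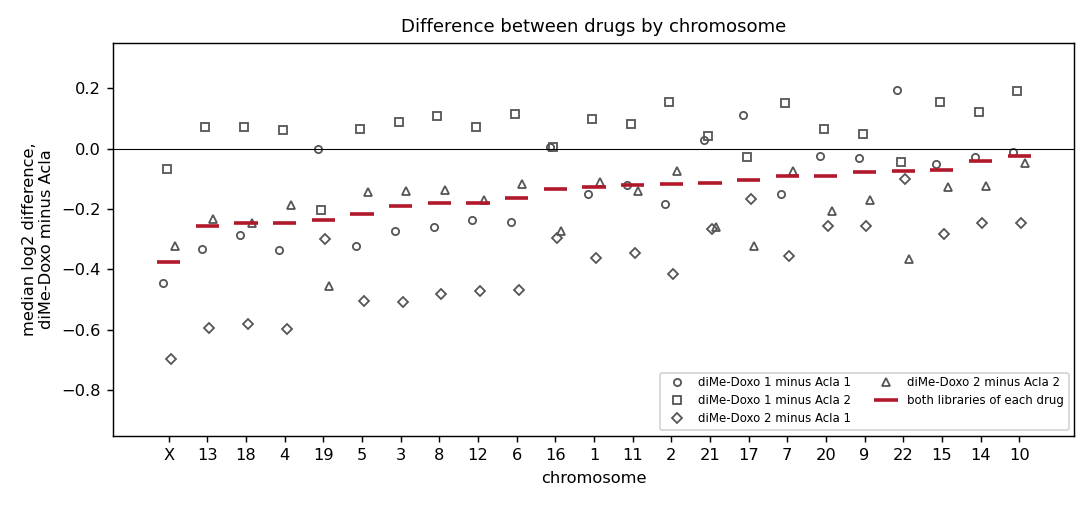
Median log2 difference, diMe-Doxo minus Acla (y axis), for each chromosome with at least 100 shared regions, ordered by its value. Red bars use both libraries of each drug and open symbols single pairs of libraries; chromosome X lies lowest at -0.376 and chromosome 10 highest at -0.0232, while in the pairs with Acla library 2 chromosome 19 lies below X.

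Along the chromosomes, reads of shared regions were summed over 1 Mb windows, and 2214 windows with at least 5 shared regions were tested with limma. On the authors' scale 0 windows (0%) passed an adjusted p of 0.05 in either direction. At an unadjusted p of at most 0.05 there were 11 higher with diMe-Doxo and 289 higher with Acla, and the lowest adjusted p was 0.279. TMM removes the shifts between all libraries, and with them that between the drugs, so directions under it are relative to the typical shared region. On that scale 348 windows were higher with diMe-Doxo (15.7%) and 536 higher with Acla (24.2%). The TMM counts were 13 and 16 without diMe-Doxo library 1, 26 and 24 without diMe-Doxo library 2, 490 and 735 without Acla library 1, and 782 and 888 without Acla library 2. Of the 536 windows higher with Acla, 370 (69.0%) had a neighbouring window called the same way and 60 had one called the opposite way. Of the 348 higher with diMe-Doxo the counts were 172 (49.4%) and 57. Whether such neighbours were more frequent than the spread of calls gives was not tested. Chromosome X had 51 of 117 windows higher with Acla (43.6%) and 12 higher with diMe-Doxo, and chromosome 18 had 20 of 51 (39.2%) and 9. Chromosome 2 had 53 of 199 higher with diMe-Doxo (26.6%) and 40 higher with Acla. Chromosomes 17, 19, 20, 21 and 22 had 0 windows higher with diMe-Doxo under TMM, among 54, 47, 46, 23 and 19 tested. Those higher with Acla were 3 (5.56%), 1 (2.13%), 8 (17.4%), 5 (21.7%) and 0 (0%), beside 24.2% of all windows.

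The window on chromosome 11 at 132-133 Mb held 94 shared regions, of which 77 had both Acla libraries above both diMe-Doxo libraries and 0 the reverse. Over all regions these shares were 33.7% and 16.8%. This window, like the others below, was named for a low p from the same reads, which helps to set these counts. Its summed levels were 1478 and 1278 for diMe-Doxo, against 2515 and 1941 for Acla (log2 difference with TMM -0.53 ± 0.09 SE, limma adjusted p 0.0169, and 0.279 on the authors' scale). Of its regions 41 were listed for Doxo, beside 66.2% of all shared regions. On chromosome 9 at 1-2 Mb, with 13 regions, the summed levels were 122.4 and 95.66 for diMe-Doxo, against 248.3 and 187.0 for Acla. On chromosome X at 6-7 Mb, with 14 regions, they were 130.1 and 104.8 against 269.7 and 189.7. Of the regions in these windows, 8 of 13 and 6 of 14 were listed for Doxo. In the opposite direction, on chromosome 2 at 132-133 Mb, with 7 regions, the diMe-Doxo levels were 230.4 and 182.8 and the Acla levels 134.8 and 124.0 (log2 difference with TMM 0.82 ± 0.10, limma adjusted p 0.0169, and 0.339 on the authors' scale). On chromosome 1 the windows at 235-236 Mb and 180-181 Mb had TMM differences of 0.80 each. In these 3 windows 7 of 7, 8 of 10 and 13 of 13 regions were listed for Doxo.

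At 23846 shared regions (54.9%) a peak had been called in all libraries of both drugs, and 224 of the 386 regions higher with diMe-Doxo and 1644 of the 2586 higher with Acla were among these. A peak in both diMe-Doxo libraries and no Acla library was recorded at 1938 regions (4.47%), and the reverse at 1638 (3.77%). These peaks were called in the libraries compared here, so the direction of the difference in these classes is set by their definition.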

How the data were processed

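ATAC-seq was compared in K562 cells after 4 h with diMe-Doxo (10 µM) or Acla (20 µM), with 2 libraries per drug and 2 common untreated control libraries. DiffBind and GRCh37 are named per the submitters' processing notes. Which aligner, peak caller, DiffBind test and versions were used is not given in the sources used here. As deposited, the lists have no header, and the meaning of each column was worked out from its values. They hold the authors' log2 mean signal and log2 fold, the authors' p-value and false discovery rate, the number of libraries with a called peak, and the normalised signal of each library. In all 3 lists the unadjusted p was at most 0.05 and the log2 fold at least 1.5, so regions that lost signal were not analysed here. The authors' false discovery rate exceeded 0.05 at some listed regions.

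The deposited signal equals a whole number of reads times 1 step per library, within 0.1 reads for 100% of values. Levels are treated signal divided by the mean step of the control libraries in the same list. The lowest treated value in the diMe-Doxo and Acla lists was 9 reads, and the reads given are these recovered numbers. The shared regions were compared with limma 3.58.1 (moderated test with a trend, R 4.3.3) on log2 levels with a pseudocount of 0, with Benjamini-Hochberg adjustment over all regions or all 1 Mb windows with at least 5 regions. A count model had been planned, but limma was used because the steps of the treated libraries could not be read from their smallest values. The test was checked on simulated data. Python 3.11.15 was used for the other steps.

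Named regions are the 5 with the lowest adjusted p in each direction past 0.05 under both scales, the 3 widest, the 3 with the most control reads and the 3 with the most treated reads. Named windows are the 3 with the lowest adjusted p in each direction, and named chromosomes the 3 highest and 3 lowest medians. The named windows had limma adjusted p-values of 0.279 or 0.339 on the authors' scale, where no window passed, and 0.0169 or 0.017 with TMM. The regions, classes and lists were chosen with earlier results of these data known. Alternatives were TMM (trims of 30% and 5%), total reads, a mean of at least 30 reads, regions with 1 read in each control library, an adjusted p of 0.01, either control library alone as scale, and leaving out each library. Coordinates are as deposited, without a statement of whether the start counts from 0 or 1. Gene names and sequences were not used here, because the reference tables are of another build.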

Additional observations from a re-analysis of the deposited data

How the results depend on the processing

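The counts of regions depended most on the library scale and on single libraries. Regions higher with diMe-Doxo numbered 2938 with TMM, 3130 with total reads, 30 at regions with 1 read in each control library and 132 at an adjusted p of 0.01. Those higher with Acla numbered 3925 with total reads, 673 at 1 control read each and 814 at 0.01. Leaving out 1 library gave 19 to 252 (375 to 4746 with TMM, including 1596 without Acla library 1) and 12 to 3323 (737 to 3839 with TMM, including 1106 without diMe-Doxo library 1 and 1585 without Acla library 1), and the lone library of a drug is then assumed to vary like those of the other drug. Windows higher with diMe-Doxo numbered 348 with TMM and 434 with total reads, and those higher with Acla 536, 556 and, at 1 control read each, 1. Without 1 library they numbered 0, and with TMM 13 to 782 and 16 to 888, including 26 and 24 without diMe-Doxo library 2 and 490 and 735 without Acla library 1.

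The median difference was 0.005 with TMM and 0 with total reads, both scales that centre it near 0 by construction. It was -0.163 or -0.136 with either control library alone as scale, and -0.306 to -0.035 without 1 library. The difference between the widest and the narrowest regions turned to -0.629 at 1 control read each, a choice made after seeing the data, and was 0.003 to 0.166 without 1 library. The difference by control reads was 0.262 to 0.706, the range over chromosomes 0.354 to 0.62 and the change along the Doxo gain 0.227 to 0.619 without 1 library. The first and the last kept their direction under the alternatives run. The range over chromosomes cannot be negative, and the chromosomes at its ends changed with the Acla library. The analyses with the Doxo list, and TMM combined with a left-out library, were also chosen after seeing the data. The share of regions higher with diMe-Doxo listed for Doxo was 90.2% with TMM, 90% with total reads and 90% at 1 control read each, and 78.9% to 100% without 1 library (88.5% to 97.9% with TMM, including 91% without Acla library 2). That of regions higher with Acla was 73.6% at 1 control read each and 64.5% to 83.3% without 1 library, where 78.9% and 83.3% both come from leaving out Acla library 1 (69.6% to 80.3% with TMM, including 73.4% without diMe-Doxo library 1). The region on chromosome 22 at 20988581-20991053 changed sign to 0.13 with TMM, 0.12 with total reads, 0.04 without diMe-Doxo library 2 and 0.14 without Acla library 2, and was -0.2 without Acla library 1. With TMM it stood at 0.18, 0.07 and 0.44 without diMe-Doxo library 1, diMe-Doxo library 2 and Acla library 2, and the region on chromosome 21 at 44836854-44841056 at 0.17 without Acla library 2. The cause of these changes was not tested. The planned count model, an edgeR quasi-likelihood test, was not run, and neither was DESeq2. No paired analysis was possible because the columns carry no replicate numbers. Depth in the controls, with a median of 1 read per region, limits every class of control signal.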
